A study of Danio rerio with 80 samples.

Results

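Zebrafish embryos exposed to 8-methylbenzo[a]pyrene (8-MBaP), a polycyclic aromatic hydrocarbon, at 1.33 µM were compared with vehicle controls at 72 h post-fertilization (hpf). The members are the 8 libraries that the sample labels place in these groups, 4 of 8-MBaP at 1.33 µM and 4 of DMSO control, out of 80 libraries in the series. Each library held messenger RNA of 6 whole embryos of the wild-type 5D strain, pooled at random and whatever their appearance, and counted from its 3′ ends. The embryos of both groups had been freed of their chorions and kept singly in the wells of 96-well plates. Exposure began at 6 hpf by the labels (7 hpf by the methods). All 8-MBaP embryos of this concentration came from 1 plate, all control embryos from 1 plate, and of 5 pools collected the 4 richest in RNA were sequenced. The error given with a log2 fold change is therefore that between pools of a plate, estimated over all groups of the fit together. An effect of the plate cannot be told apart from an effect of 8-MBaP. Libraries of the same study used beside these are 8-MBaP at 0.133 and 13.3 µM, benzo[a]pyrene (BaP) and 6-methylbenzo[a]pyrene (6-MBaP) at 1.33 µM at 72 hpf, 8-MBaP at 1.33 µM with its control at 48 hpf, and both times of 6-MBaP at 0.133 µM, each with 4 pools. 8-MBaP and 6-MBaP are BaP with a single methyl group, placed at different positions of the ring system. The study chose this concentration as the one at which the x-fin, an ectopic caudal fin fold at a right angle to the normal one, formed without the other malformations of the higher concentration.

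Many polycyclic aromatic hydrocarbons bind the aryl hydrocarbon receptor (AHR), a ligand-activated transcription factor that enters the nucleus, pairs with ARNT and switches on genes for detoxifying enzymes, cytochrome P450 family 1 foremost. In zebrafish Ahr2 is the receptor through which most such compounds act, and Tiparp is among the products that damp the receptor again. The larval fin fold is a sheet of skin stiffened by actinotrichia, fibers that hold the actinodin proteins And1, And2 and And3 with collagen, and a ridge of ectoderm at its rim expresses transcription factors of the Sp and Dlx families. The skin of the larva has an outer keratin-rich layer and a basal layer, and scattered among its cells are ionocytes, which take up salt and secrete acid.

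Library totals were 5736395 to 8070442 counts (median 6665848) in 8-MBaP pools and 6062436 to 7811015 in control pools, and the 10 most abundant genes took 22.3 to 25.7% of the counts in 8-MBaP pools and 22.9 to 24.4% in control pools. On the first principal component of the 8 libraries (24.4% of the variance) the 8-MBaP pools lay between −20.0 and −12.8 and the control pools between 15.1 and 18.2. On the second (14.6%) 8-MBaP pool D stood apart at −25.5, while the other 8-MBaP pools lay between 5.86 and 15.6. Markers of the tissues of a larva were present in both groups. All 24 keratin IDs had reads, and their summed level was 75388 to 91779.9 normalized counts (counts scaled to a common library size) in 8-MBaP pools, against 154062 to 164520.4 in control pools. This was 1.16 to 1.38% of all counts in 8-MBaP pools and 2.31 to 2.48% in control pools. The lens list summed to 177802 to 197731 in 8-MBaP pools and 211372 to 236727 in control pools, skeletal muscle to 446234 to 488473 and 496414 to 517648, and heart to 652 to 752 and 787 to 932, all without overlap and lower in 8-MBaP. The blood stem and myeloid list, at 662 to 811 in 8-MBaP pools and 518 to 632 in control pools, was higher without overlap. Of its 20 tested members 13 had positive and 7 negative log2 fold changes, and the blood stem cell gene *myb* was not called. The sum includes the called genes *mmp9*, *mmp13a* and *ccl27a*, given below, and *mmp9* and *ccl27a* are not particular to blood cells. Whether the groups stay apart without these genes was not tested. Whether this sum follows the number of such cells was not tested. Nervous system, erythroid, exocrine pancreas and liver sums overlapped between the groups, and the part that any of these marker levels has in the other results was not tested.

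Of 18423 genes tested, 170 (0.923%) were called, 95 higher (0.516%) and 75 lower (0.407%) in 8-MBaP pools. Over all genes tested 8956 log2 fold changes were positive and 9447 negative. These shares are the background to the counts of each gene list below. The lists were chosen with earlier results of these data known, so a list's count or median is a description and no independent support. The call rests on edgeR's quasi-likelihood test, with a Benjamini-Hochberg adjusted p of at most 0.05 and no minimum fold change. At an unadjusted p under 0.05 there were 1574 genes, and with no filter on low counts 307 were called. Among the higher genes 50 had changed by 2-fold or more and 22 by 4-fold or more, with a median log2 fold change of 1.02. Among the lower genes 25 had changed by 2-fold or more and 6 by 4-fold or more, with a median of −0.70. The 4 exposed and 4 control pools did not overlap in 90 of the 95 higher and 70 of the 75 lower genes, beside 5.23% of all genes tested. Leaving out any 1 library left 131 to 158 genes called, the fewest without 8-MBaP pool D, and 95 of the 170 were called under every alternative tried. Since whole embryos were pooled, fewer cells of a type and less RNA per cell cannot be told apart in any of these values.

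**Figure D1:**
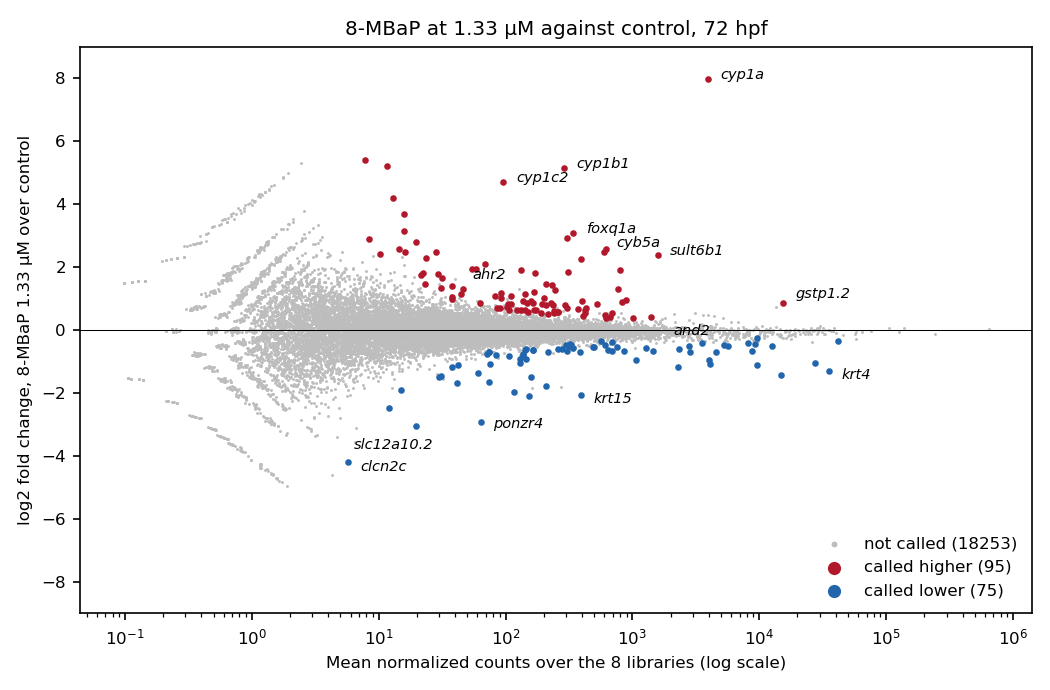
log2 fold change (8-MBaP at 1.33 µM over control, 72 hpf) against mean normalized counts over the 8 libraries on a log scale, 1 point per gene tested. Red points are the 95 genes called higher, blue points the 75 called lower and grey points the others; *cyp1a* stands alone at 7.99, and the keratin *krt4* is among the most abundant genes called lower.

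Of 15 tested genes of the AHR battery, 9 were higher in 8-MBaP pools and 0 lower, with a median log2 fold change of 1.29, beside −0.01 over all genes tested. The largest changes of the list were of cytochrome P450 genes. *cyp1a* (ENSDARG00000098315), which encodes the monooxygenase that serves as the usual readout of the receptor, had 7832, 8277, 7679 and 7459.7 normalized counts in 8-MBaP pools, against 41.3, 27.0, 25.8 and 29.7 in control pools. At 7.99 ± 0.17 (adjusted p = 6.2e-43) on the log2 scale its change was the largest of all genes called, and the lowest 8-MBaP pool lay far above the highest control pool. *cyp1b1* (ENSDARG00000068934), a P450 of the same family, had 558, 503, 517 and 673 normalized counts in 8-MBaP pools, against 29.0, 16.2, 12.4 and 7.65 in control pools (log2 fold change 5.14 ± 0.21, adjusted p = 1.1e-27). *cyp1c2* (ENSDARG00000101789), a family 1 gene that mammals lack, had 218, 172, 152 and 198 normalized counts in 8-MBaP pools, against 7.81, 5.41, 7.21 and 7.65 in control pools (log2 fold change 4.70 ± 0.31, adjusted p = 1.0e-18). All these genes had few reads in controls, and the pools of the groups were far apart. *cyp1d1* (ENSDARG00000035569), a family member known in zebrafish not to respond to AHR ligands, had 45.6 ± 7.46 normalized counts in 8-MBaP pools and 43.5 ± 6.93 in control pools (mean ± SD, n = 4 pools) and was not called (0.08 ± 0.23, adjusted p = 0.97 on the log2 scale).

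Enzymes of the conjugating phase, which attach sulfate or glucuronic acid to oxidized compounds, followed. The sulfotransferase gene *sult6b1* (ENSDARG00000086826) had 2432, 2964, 2766 and 2475 normalized counts in 8-MBaP pools, against 465, 443, 566 and 535 in control pools (log2 fold change 2.40 ± 0.12, adjusted p = 4.3e-23). The glucuronosyltransferase gene *ugt1a1* (ENSDARG00000006220) had 445, 485, 479 and 441 normalized counts in 8-MBaP pools, against 295, 287, 329 and 243 in control pools (log2 fold change 0.68 ± 0.13, adjusted p = 4.1e-04). The groups did not overlap in either gene. *nqo1* (ENSDARG00000010250), a quinone reductase that is under both AHR and Nrf2 control in mammals, was not called, with 287, 297, 283 and 242 normalized counts in 8-MBaP pools, against 198, 171, 233 and 280.4 in control pools (log2 fold change 0.33 ± 0.14, adjusted p = 0.42). Control pool D lay within the 8-MBaP range.

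The called transcription factor and feedback genes of the battery rose by 1.91- to 8.55-fold. *foxq1a* (ENSDARG00000030896), a forkhead factor gene, had 676, 522, 632 and 626 normalized counts in 8-MBaP pools, against 60.3, 81.1, 60.8 and 82.4 in control pools (log2 fold change 3.10 ± 0.14, adjusted p = 1.8e-25). Its paralog *foxq1b* (ENSDARG00000055395) had 209, 201, 219 and 207 normalized counts in 8-MBaP pools, against 123, 92.8, 139 and 85.8 in control pools (log2 fold change 0.93 ± 0.15, adjusted p = 4.1e-05). No pool of either gene overlapped with the other group. *tiparp* (ENSDARG00000061841), which encodes the ADP-ribosyltransferase that restrains the receptor, had 349.7, 324, 419 and 273 normalized counts in 8-MBaP pools, against 106, 141, 125 and 132 in control pools (log2 fold change 1.43 ± 0.14, adjusted p = 6.2e-12). The receptor gene *ahr2* (ENSDARG00000021833) itself had 119.7, 109.6, 119 and 148 normalized counts in 8-MBaP pools, against 56.9, 55.0, 60.8 and 71.4 in control pools (log2 fold change 1.02 ± 0.18, adjusted p = 1.9e-04). The lowest 8-MBaP pool was thus above the highest control pool for the receptor as well as for its restraint. The partner gene *arnt2* (ENSDARG00000103697) had 530.2 ± 14.3 normalized counts in 8-MBaP pools and 533 ± 72.0 in control pools (log2 fold change −0.01 ± 0.10, adjusted p = 0.99). *arnt* (ENSDARG00000021855) and the other receptor gene *ahr1b* (ENSDARG00000023537) had at most 7.05 normalized counts in any pool and were not called (adjusted p = 0.83 and 0.96). *wfikkn1* (ENSDARG00000101364), a secreted protease inhibitor gene, had 13 counts in all 8-MBaP pools together and 2 in all control pools, and was not called (adjusted p = 0.63).

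**Figure D2:**
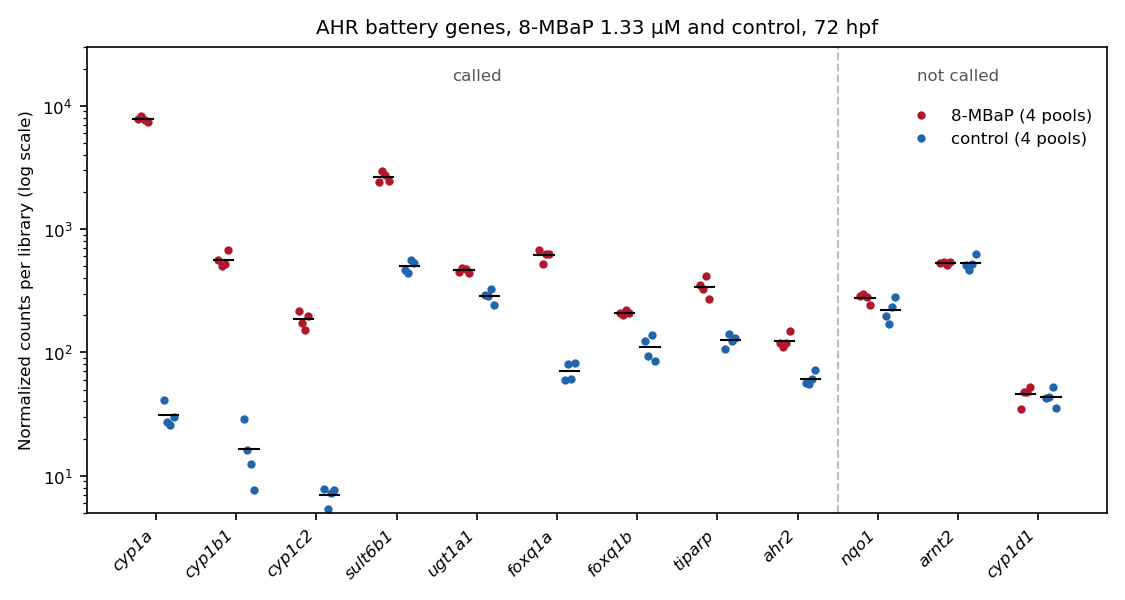
Normalized counts per library (log scale) of 12 AHR battery genes in 8-MBaP at 1.33 µM (red) and control (blue) pools at 72 hpf, with bars at the group means. The 9 called genes, left of the dashed line, show no overlap of the groups. *nqo1*, *arnt2* and *cyp1d1* on the right overlap, and the tested genes *arnt*, *ahr1b* and *wfikkn1*, which had pools at 0, are not drawn.

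Outside the battery, several rises concerned genes of electron transfer, conjugation and chemokine signaling. *cyb5a* (ENSDARG00000098589), the cytochrome b5 that passes electrons to P450 enzymes, was chosen after its values were seen, as were *ugt1b5* and *cxcl19*. It had 1005, 1042, 997 and 990.2 normalized counts in 8-MBaP pools, against 136, 217, 191 and 169 in control pools (log2 fold change 2.50 ± 0.15, adjusted p = 1.0e-20). The glucuronosyltransferase gene *ugt1b5* (ENSDARG00000089507) had 546, 413, 539 and 442 normalized counts in 8-MBaP pools, against 132, 115, 171 and 121 in control pools (log2 fold change 1.85 ± 0.14, adjusted p = 1.1e-15). Both genes were higher in every 8-MBaP pool than in any control pool. The chemokine gene *ccl27a* (ENSDARG00000058570), whose mammalian counterpart is made by keratinocytes, had 27.9, 21.9, 30.3 and 18.4 normalized counts in 8-MBaP pools, against 3.35, 0.901, 0 and 0.85 in control pools (log2 fold change 4.20 ± 0.74, adjusted p = 1.6e-04). Without control pool A, which held most of its control counts, the value was 5.07. Another chemokine gene, *cxcl19* (ENSDARG00000102776), had 64 counts in the 8-MBaP pools together and 1 in the control pools, a ratio of 63.2 with a counting interval of 10.9 to 2534 that covers counting error only (adjusted p = 3.2e-05). In contrast, the chemokine gene *ccl34b.1* (ENSDARG00000093608) was lower, with 16.3, 21.1, 22.0 and 18.4 normalized counts in 8-MBaP pools, against 65.9, 55.9, 75.2 and 55.2 in control pools (log2 fold change −1.68 ± 0.32, adjusted p = 4.8e-04).

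Further large rises were of genes whose roles the tables used here do not give, most of them known by provisional names. *si:dkey-7c18.24* (ENSDARG00000041433) had 299, 643, 409 and 803 normalized counts in 8-MBaP pools, against 65.9, 71.2, 70.1 and 73.1 in control pools (log2 fold change 2.94 ± 0.29, adjusted p = 3.4e-11). The 8-MBaP pools of this gene differed among themselves by more than those of the next. *si:ch211-207n23.2* (ENSDARG00000097157) had 923, 1079, 1109 and 1102 normalized counts in 8-MBaP pools, against 164, 138, 127 and 273 in control pools (log2 fold change 2.58 ± 0.18, adjusted p = 3.0e-17). A further 5, ENSDARG00000097714 at 3.68 ± 0.62 (adjusted p = 5.9e-05), *si:ch73-261i21.5* at 3.14 ± 0.53 (adjusted p = 6.5e-05), ENSDARG00000069381 at 2.81 ± 0.62 (adjusted p = 0.0058), *si:dkey-30c15.2* at 2.57 ± 0.54 (adjusted p = 0.0031) and *urgcp* at 2.50 ± 0.51 (adjusted p = 0.002), had control means of 2.24 to 4.80 normalized counts. Of genes without a symbol, ENSDARG00000091116 had 538, 701, 772 and 587 normalized counts in 8-MBaP pools, against 129, 122, 122 and 164 in control pools (log2 fold change 2.27 ± 0.14, adjusted p = 3.4e-20), and ENSDARG00000007080 had 96 counts in 8-MBaP pools together and 2 in control pools (adjusted p = 0.0012). The value of *si:dkey-30c15.2* was 3.35 without control pool B, and that of ENSDARG00000007080 was 5.22 ± 1.04 with all libraries and 7.51 without control pool C.

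Of 25 tested genes of glutathione conjugation and the Nrf2 response, 4 were higher and 0 lower, with a median log2 fold change of 0.21, and 21 of the 25 values were positive. The Nrf2 gene *nfe2l2a* (ENSDARG00000042824), which encodes the factor that turns on antioxidant genes, had 1086, 1063, 1168 and 1009.6 normalized counts in 8-MBaP pools, against 594, 652, 450.2 and 639.9 in control pools (log2 fold change 0.89 ± 0.11, adjusted p = 1.4e-08). The glutathione transferase gene *gstp1.2* (ENSDARG00000104068) had 17947, 21015, 21505 and 19263 normalized counts in 8-MBaP pools, against 10807, 11916, 10125 and 10629.6 in control pools (log2 fold change 0.87 ± 0.09, adjusted p = 3.1e-11). Both were higher in all 4 8-MBaP pools than in any control pool. The call of a further transferase gene, *gsto2* (ENSDARG00000033285) at 0.55 ± 0.12 (adjusted p = 0.0075), was lost without control pool A (log2 fold change 0.49, adjusted p = 0.064). That of the Nrf2 paralog gene *nfe2l2b* (ENSDARG00000089697), at 1.47 ± 0.38 (adjusted p = 0.033), was lost without 8-MBaP pool B, C or D and without control pool A, B or D (log2 fold change 1.35 to 1.48, adjusted p = 0.07 to 0.14). The glutathione reductase gene *gsr* (ENSDARG00000019236) had 105, 130.0, 149 and 178 normalized counts in 8-MBaP pools, against 89.3, 102, 104 and 109.6 in control pools and was not called, at 0.47 ± 0.18 (adjusted p = 0.33), the lowest 8-MBaP pool lying within the control range.

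The keratins, the intermediate filament proteins of skin, gave more lower genes than any other list. Of 22 tested, 7 were lower and 0 higher in 8-MBaP pools, with a median log2 fold change of −0.25 and 17 negative values. *krt4* (ENSDARG00000017624), which encodes a keratin of superficial skin cells, had 22101, 17669, 22447 and 19989 normalized counts in 8-MBaP pools, against 48188, 52486, 46069 and 54260.3 in control pools (log2 fold change −1.29 ± 0.08, adjusted p = 8.2e-19), 2.45-fold lower. *krt15* (ENSDARG00000036840) fell furthest, with 151, 141, 195 and 127 normalized counts in 8-MBaP pools, against 666, 717, 690.3 and 483 in control pools (log2 fold change −2.06 ± 0.16, adjusted p = 2.7e-15). In both genes the highest 8-MBaP pool was far below the lowest control pool.

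*cyt1*, *krt1-19e* and *cyt1l*, also of high level, were lower without overlap. *cyt1* (ENSDARG00000092947) had 21111, 16732, 18651 and 15851 normalized counts in 8-MBaP pools, against 37448, 35835, 41269 and 34227 in control pools (log2 fold change −1.04 ± 0.10, adjusted p = 4.2e-12). *krt1-19e* (ENSDARG00000090268) had 6380.1, 6066, 6279.9 and 5648 normalized counts in 8-MBaP pools, against 11950.0, 12357, 14724 and 12999.6 in control pools (log2 fold change −1.09 ± 0.10, adjusted p = 4.2e-12). *cyt1l* (ENSDARG00000036832) had 11662, 6895, 7692 and 6021 normalized counts in 8-MBaP pools, against 24421, 18352, 18021 and 24940.3 in control pools (log2 fold change −1.41 ± 0.19, adjusted p = 2.9e-07). In *cyt1l* 8-MBaP pool A was higher than the other 8-MBaP pools yet below every control pool. *krt5* (ENSDARG00000058371), another keratin of high level, was not called, with 6489, 5850.3, 5739 and 5400 normalized counts in 8-MBaP pools, against 6918, 6297, 7916 and 7188 in control pools, which overlap (log2 fold change −0.27, adjusted p = 0.14). The remaining called keratins, named like *krt5* after their values were seen, were *krt91* (ENSDARG00000036830) at −0.67 ± 0.11 (adjusted p = 3.5e-05) and *krt8* (ENSDARG00000058358) at −0.42 ± 0.10 (adjusted p = 0.0092). The call of *krt8* was lost without 8-MBaP pool B and without control pool D (log2 fold change −0.34 to −0.33, adjusted p = 0.12 to 0.13). Several keratin genes are near-identical neighbors, and how reads shared between such copies were counted is not given in the sources used here, so the split between them is uncertain.

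Other skin genes fell in smaller number. Of 21 tested, 2 were lower and 0 higher, with a median log2 fold change of −0.20. Both were annexins, proteins that bind membranes in the presence of calcium. *anxa1c* (ENSDARG00000104359) had 738, 692, 696 and 795 normalized counts in 8-MBaP pools, against 1617, 1419, 1328 and 1327 in control pools (log2 fold change −0.96 ± 0.12, adjusted p = 6.5e-08). *anxa2a* (ENSDARG00000003216) had 992, 925, 930.4 and 1283 normalized counts in 8-MBaP pools, against 1627, 1534, 1371 and 1600.1 in control pools (log2 fold change −0.57 ± 0.11, adjusted p = 5.6e-04). Neither gene's groups overlapped, though 8-MBaP pool D came nearest to the controls in each. Of skin genes outside the lists, the desmosomal plakophilin gene *pkp1b* (ENSDARG00000052705) at −1.37 ± 0.26 (adjusted p = 6.7e-04) and the mucin gene *muc5.1* (ENSDARG00000070331) at −0.90 ± 0.18 (adjusted p = 8.4e-04) were also lower, both chosen after their values were seen.

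Genes of ionocytes were lower in 4 of 22 tested and higher in 0, with a median log2 fold change of −0.27 and 17 negative values. *slc12a10.2* (ENSDARG00000071173), the sodium-chloride cotransporter of an ionocyte type, had 2.32, 1.57, 1.84 and 11.2 normalized counts in 8-MBaP pools, against 34.6, 37.9, 42.2 and 25.5 in control pools (log2 fold change −3.06 ± 0.44, adjusted p = 1.7e-06). 8-MBaP pool D lay above the other 8-MBaP pools, and still below every control pool, and without it the log2 fold change was −4.14. The chloride channel gene *clcn2c* (ENSDARG00000060439) had 2 counts in the 8-MBaP pools together and 45 in the control pools (adjusted p = 2.4e-04), 22.8 times fewer, with a counting interval of 5.95 to 194. *ca15a* (ENSDARG00000015654), a carbonic anhydrase of the acid-secreting ionocytes, had 40.7, 43.1, 33.0 and 26.6 normalized counts in 8-MBaP pools, against 105, 133, 107 and 102 in control pools (log2 fold change −1.64 ± 0.21, adjusted p = 5.5e-08). The forkhead gene *foxi3a* (ENSDARG00000055926), needed for ionocytes to form, had 13.9, 3.13, 2.75 and 6.13 normalized counts in 8-MBaP pools, against 15.6, 25.2, 22.7 and 29.7 in control pools (log2 fold change −1.91 ± 0.43, adjusted p = 0.0075). Its call was lost without 8-MBaP pool B or C (log2 fold change −1.66, adjusted p = 0.071 to 0.074), and its log2 fold change was −2.54 without 8-MBaP pool A, the highest of the 8-MBaP pools. The calls of *slc12a10.2*, *clcn2c* and *ca15a* remained with any 1 library left out.

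Among lower genes on none of the lists, *ponzr4* and *ponzr3* encode small cysteine-rich proteins of the Plac8 onzin-related family. *ponzr4* (ENSDARG00000087440) had 18.6, 12.5, 11.9 and 17.4 normalized counts in 8-MBaP pools, against 108, 88.3, 98.9 and 155 in control pools (log2 fold change −2.91 ± 0.30, adjusted p = 1.0e-10). *ponzr3* (ENSDARG00000088589) had 68.6, 60.3, 33.0 and 69.5 normalized counts in 8-MBaP pools, against 291, 205, 220.5 and 269 in control pools (log2 fold change −2.10 ± 0.22, adjusted p = 1.1e-10). No 8-MBaP pool of either reached the control range. The Wnt antagonist gene *dkk2* (ENSDARG00000076420) was also lower, with 5.81, 3.13, 0 and 6.13 normalized counts in 8-MBaP pools, against 13.4, 27.9, 23.7 and 17.0 in control pools (log2 fold change −2.46 ± 0.57, adjusted p = 0.0093). That call was lost without 8-MBaP pool B or C (log2 fold change −2.39 to −2.04, adjusted p = 0.05 to 0.08). Genes with provisional names that fell were *zgc:112964* at −1.98 ± 0.22 (adjusted p = 8.4e-10), *si:dkey-65b12.6* at −1.77 ± 0.17 (adjusted p = 8.6e-12) and *si:ch211-209m20.7* at −1.49 ± 0.19 (adjusted p = 1.5e-07), and of IDs without a symbol ENSDARG00000002193 at −0.71 ± 0.13 (adjusted p = 4.8e-04) and ENSDARG00000014196 at −0.49 ± 0.10 (adjusted p = 0.0028). The call of ENSDARG00000014196 was lost without control pool D (log2 fold change −0.39, adjusted p = 0.067).

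Among genes known from the fin fold, 2 actinodin genes were lower, while 3 of the called regulators were higher and 1 lower. As whole embryos were pooled, where in the embryo these changes lay was not tested. Of 14 tested structural genes, 2 were lower and 0 higher (median log2 fold change −0.07). Both lower genes encode actinodins. *and2* (ENSDARG00000079302) had 2496, 1971, 2382 and 1952 normalized counts in 8-MBaP pools, against 3902, 3399, 3526 and 3315 in control pools (log2 fold change −0.68 ± 0.09, adjusted p = 5.8e-07). *and3* (ENSDARG00000056873) had 672, 576, 613 and 637 normalized counts in 8-MBaP pools, against 912, 817, 919 and 931 in control pools (log2 fold change −0.52 ± 0.09, adjusted p = 5.7e-05). The groups did not overlap in either. *and1* (ENSDARG00000088514) had 2557, 2272, 2363 and 2113 normalized counts in 8-MBaP pools, against 2836, 2361, 2775 and 2404 in control pools, overlapping, and was not called at −0.16 ± 0.08 (adjusted p = 0.6), with an interval (1.96 SE on either side) of −0.31 to 0.00. For *and2* the interval was −0.87 to −0.50 and for *and3* −0.69 to −0.35. The difference between the actinodin genes was not tested.

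Of 34 tested regulators of the fin fold, 3 were higher and 1 lower (median log2 fold change 0.12, 25 values positive). *dlx3b* (ENSDARG00000014626), a homeobox gene of the fin fold rim and the ear and nose placodes, had 196, 162, 227 and 195 normalized counts in 8-MBaP pools, against 92.6, 83.8, 104 and 74.8 in control pools (log2 fold change 1.14 ± 0.16, adjusted p = 7.0e-07). The zinc finger gene *sp9* (ENSDARG00000099374), of the ectodermal ridge, had 149.9, 144, 139 and 135 normalized counts in 8-MBaP pools, against 81.5, 64.0, 71.1 and 100.3 in control pools (log2 fold change 0.84 ± 0.18, adjusted p = 0.0028). Every 8-MBaP pool of these genes was above every control pool. An ID of *sp8a* or *sp8b* (ENSDARG00000011870) was higher at 0.65 ± 0.17 (adjusted p = 0.039), a call lost without 8-MBaP pool A or C and without control pool A, B, C or D (log2 fold change 0.52 to 0.69, adjusted p = 0.054 to 0.25). The lower regulator was *bhlha9* (ENSDARG00000103981), a helix-loop-helix gene whose human counterpart is altered in limb malformations, with 19.8, 13.3, 15.6 and 14.3 normalized counts in 8-MBaP pools, against 52.5, 44.2, 43.3 and 38.2 in control pools (log2 fold change −1.50 ± 0.30, adjusted p = 0.0012). The groups did not overlap.

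**Figure D3:**
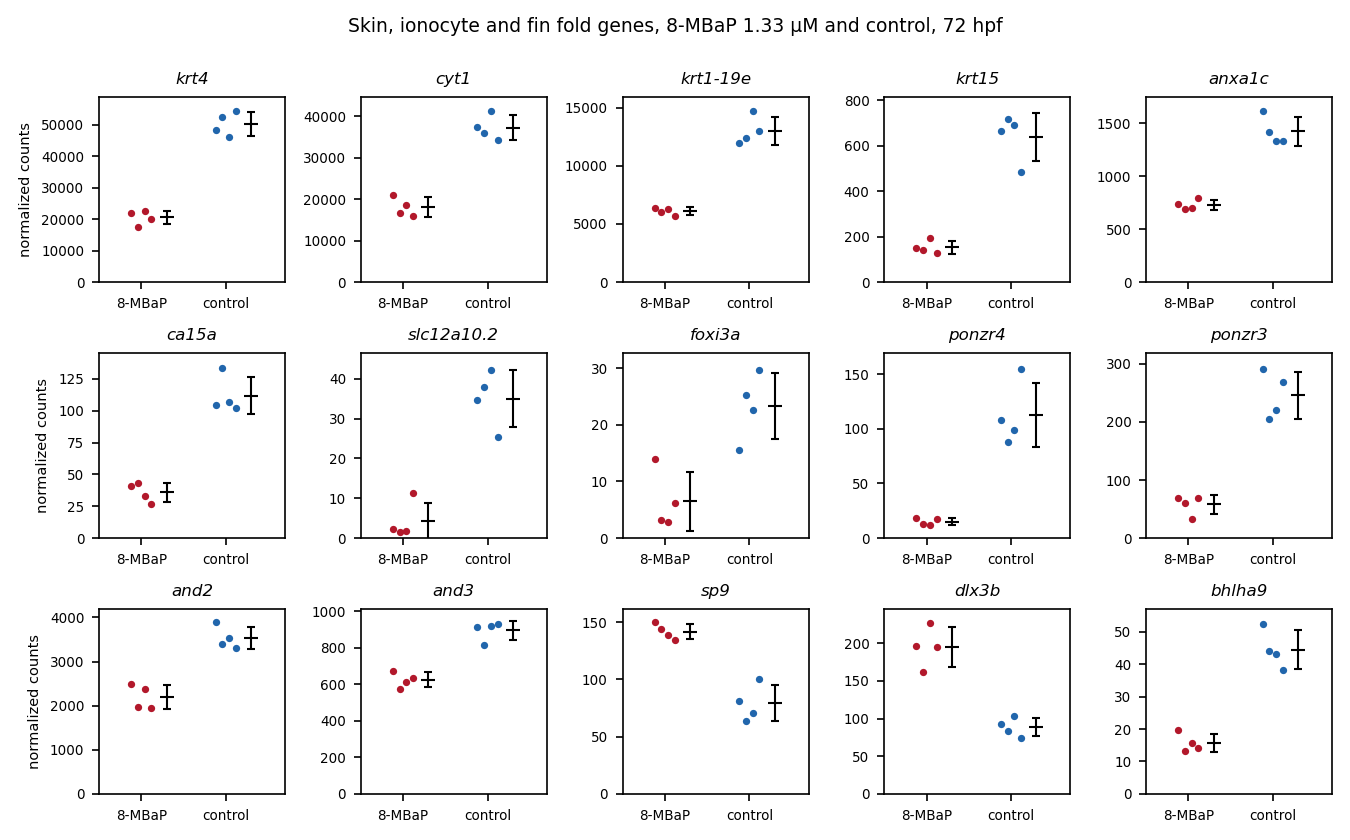
Normalized counts per library (linear axes from 0) of 15 skin, ionocyte, onzin-related and fin fold genes at 72 hpf, with 8-MBaP at 1.33 µM in red left of control in blue. Each point is a pool, and black bars give the mean ± SD of 4 pools. *sp9* and *dlx3b* were higher in 8-MBaP and the other 13 genes lower, none with overlapping groups.

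Placode genes were higher in 2 of 18 tested and lower in 0 (median log2 fold change 0.00), namely *dlx3b* and *tfap2c* (ENSDARG00000040606). *tfap2c*, an AP-2 factor gene of early ectoderm, had 234, 166, 225 and 217 normalized counts in 8-MBaP pools, against 117, 158, 145 and 117 in control pools (log2 fold change 0.64 ± 0.14, adjusted p = 0.0064). Its call was lost without control pool D (log2 fold change 0.58, adjusted p = 0.056). Signaling lists held at most 1 called gene each. The median log2 fold change was 0.05 for BMP targets (6 of 12 values positive) and 0.23 for FGF targets (8 of 10 positive). Of 12 BMP targets 1 was higher, an ID of *bambia* or *bambib* (ENSDARG00000055381), a decoy receptor gene, at 0.65 ± 0.17 (adjusted p = 0.044), a call lost without 8-MBaP pool A, B, C or D and without control pool A, B, C or D (log2 fold change 0.59 to 0.70, adjusted p = 0.05 to 0.18). Of 10 FGF targets 1 was higher, the feedback inhibitor gene *spry4* (ENSDARG00000068732) at 0.50 ± 0.13 (adjusted p = 0.033), a call lost without 8-MBaP pool A or C and without control pool B, C or D (log2 fold change 0.40 to 0.53, adjusted p = 0.052 to 0.23). None of 9 Wnt, 7 hedgehog or 16 retinoid genes was called, with medians of 0.02, 0.08 and −0.06. The members of highest mean count were *ccnd1* at 0.04 and *nkd1* at 0.41 for Wnt, *hhip* at 0.01 and *gli2a* or *gli2b* at −0.04 for hedgehog, and *rbp4* at −0.14 and *crabp2a* or *crabp2b* at 0.32 for retinoid signaling on the log2 scale.

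Collagen genes were lower in 2 of 40 tested and higher in 0. Their median log2 fold change was −0.18, and 33 of 40 values were negative, beside 9447 of 18423 over all genes tested. *col1a1a* (ENSDARG00000012405), a chain of the main fibrillar collagen of skin and bone, had 8978, 8620.5, 9127 and 8304 normalized counts in 8-MBaP pools, against 10429, 9772, 10693 and 11101 in control pools (log2 fold change −0.26 ± 0.07, adjusted p = 0.036). That call was lost without 8-MBaP pool A, B or D and without control pool A, C or D (log2 fold change −0.27 to −0.23, adjusted p = 0.061 to 0.17), and also with no filter on low counts and with the other groups left out of the fit. *col18a1a* (ENSDARG00000036558), of basement membranes, was lower at −0.38 ± 0.09 (adjusted p = 0.011), a call lost without 8-MBaP pool D and without control pool B (log2 fold change −0.34 to −0.31, adjusted p = 0.07 to 0.14) and with the other groups left out of the fit. *col1a1b* (ENSDARG00000035809) at −0.12 (adjusted p = 0.67), *col1a2* (ENSDARG00000020007) at −0.11 (adjusted p = 0.74) and the IDs of *col2a1a* or *col2a1b*, ENSDARG00000011407 at −0.15 and ENSDARG00000069093 at −0.16, were not called.

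Matricellular genes, whose proteins tune the contact of cells with their matrix, moved both ways, with 3 higher and 2 lower of 16 tested. The connective tissue growth factor gene *ccn2a* (ENSDARG00000042934) had 292, 284, 319 and 345 normalized counts in 8-MBaP pools, against 206, 155, 229.7 and 241 in control pools (log2 fold change 0.57 ± 0.12, adjusted p = 0.0045). It was not called without control pool B (log2 fold change 0.45, adjusted p = 0.085). Its paralog *ccn2b* (ENSDARG00000104292) was higher at 1.16 ± 0.30 (adjusted p = 0.031), a call lost without 8-MBaP pool A or C and without control pool A, B or C (log2 fold change 0.93 to 1.20, adjusted p = 0.06 to 0.23). An ID of *thbs1a* or *thbs1b* (ENSDARG00000010785), thrombospondin genes, was higher at 0.39 ± 0.09 (adjusted p = 0.0082), a call lost without 8-MBaP pool B (log2 fold change 0.35, adjusted p = 0.065). The lower members were an ID of *postna* or *postnb* (ENSDARG00000043806), periostin genes, with 107, 106, 82.6 and 107 normalized counts in 8-MBaP pools, against 206, 196, 167 and 183 in control pools (log2 fold change −0.90 ± 0.17, adjusted p = 4.9e-04), and *spon2b* (ENSDARG00000002732) at −0.60 ± 0.15 (adjusted p = 0.028). The *spon2b* call was lost without 8-MBaP pool B or D and without control pool C or D (log2 fold change −0.58 to −0.48, adjusted p = 0.094 to 0.24).

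Cartilage and bone genes gave 1 higher and 1 lower of 17 tested. An ID of *sox9a* or *sox9b* (ENSDARG00000043923), regulators of cartilage formation, had 80.2, 96.3, 75.2 and 85.8 normalized counts in 8-MBaP pools, against 153, 175, 166 and 203 in control pools (log2 fold change −1.04 ± 0.16, adjusted p = 1.2e-05), with no overlap. The matrilin gene *matn4* (ENSDARG00000015947) was higher at 0.37 ± 0.10 (adjusted p = 0.046), a call lost without 8-MBaP pool A, B, C or D and without control pool A, B or C (log2 fold change 0.33 to 0.41, adjusted p = 0.054 to 0.2).

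Lens and photoreceptor genes were lower where they were called. Of 50 tested lens genes 3 were lower and 0 higher. The list's median log2 fold change was −0.23, and 45 of 50 values were negative. The crystallin gene *crybb1* (ENSDARG00000068507) had 8269, 8273, 7776 and 7021 normalized counts in 8-MBaP pools, against 9349, 10518, 11155 and 11841 in control pools (log2 fold change −0.45 ± 0.09, adjusted p = 0.0017). An ID of *mipa* or *mipb* (ENSDARG00000013963), the water channel genes of lens fibers, had 524, 567, 506 and 440.4 normalized counts in 8-MBaP pools, against 649.6, 766, 839 and 878 in control pools (log2 fold change −0.62 ± 0.11, adjusted p = 1.1e-04). Its partner ID ENSDARG00000037285 was not called, at −0.23 ± 0.13 (adjusted p = 0.64). The crystallin gene *crybb1l1* (ENSDARG00000007576) was lower at −0.50 ± 0.11 (adjusted p = 0.0046), a call lost without 8-MBaP pool D (log2 fold change −0.43, adjusted p = 0.068). Crystallin genes too have near-identical copies, between which reads may have been split.

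Of 33 tested photoreceptor genes 2 were lower and 0 higher, with a median log2 fold change of −0.25 and 30 negative values. Over all genes tested 9447 of 18423 values were negative. The outer segment gene *rom1a* (ENSDARG00000019752) was at −0.79 ± 0.18 (adjusted p = 0.011) and the rod arrestin gene *saga* (ENSDARG00000012610) at −0.79 ± 0.19 (adjusted p = 0.014). The call of *rom1a* was lost without 8-MBaP pool A or D and without control pool B (log2 fold change −0.70 to −0.64, adjusted p = 0.082 to 0.14), and that of *saga* without 8-MBaP pool C or D (log2 fold change −0.75 to −0.68, adjusted p = 0.074 to 0.12).

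Of 20 tested blood stem and myeloid genes, 3 were higher, among them *ccl27a* above, and 0 lower. The list was mixed, with 13 positive and 7 negative log2 fold changes (−1.18 to 4.20, median 0.25). *mmp9* (ENSDARG00000042816), a matrix metalloproteinase gene of neutrophils and wounded skin, had 26.7, 36.0, 35.8 and 94.0 normalized counts in 8-MBaP pools, against 4.46, 16.2, 3.09 and 9.35 in control pools (log2 fold change 2.48 ± 0.43, adjusted p = 1.0e-04). 8-MBaP pool D was far above the other 8-MBaP pools, and each of those was above every control pool. The collagenase gene *mmp13a* (ENSDARG00000012395) was higher at 1.64 ± 0.36 (adjusted p = 0.0058), a call lost without 8-MBaP pool A (log2 fold change 1.41, adjusted p = 0.062). *myb* (ENSDARG00000053666), which marks blood stem cells, was not called, with 62.7, 50.9, 78.0 and 38.8 normalized counts in 8-MBaP pools, against 61.4, 63.1, 61.8 and 49.3 in control pools. Of 14 lysosomal protease genes 3 were higher and 0 lower. *ctsl.1* (ENSDARG00000003902) had 94.1, 84.6, 93.6 and 97.1 normalized counts in 8-MBaP pools, against 19.0, 10.8, 34.0 and 32.3 in control pools (log2 fold change 1.93 ± 0.25, adjusted p = 1.5e-07). *ctss2.1* (ENSDARG00000074656) had 72.0, 72.8, 45.9 and 73.6 normalized counts in 8-MBaP pools, against 16.7, 23.4, 24.7 and 40.8 in control pools (log2 fold change 1.30 ± 0.27, adjusted p = 0.0027). Neither gene's groups overlapped. The neighboring *ctss2.2* (ENSDARG00000013771) was higher at 1.07 ± 0.26 (adjusted p = 0.021), a call lost without 8-MBaP pool A or B and without control pool A or C (log2 fold change 0.88 to 1.05, adjusted p = 0.06 to 0.17).

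Of 21 early stress genes 1 was higher and 0 lower, although 19 of 21 values were positive (median 0.34). *ier2a* (ENSDARG00000099195), an immediate early gene, had 417, 301, 340.4 and 447 normalized counts in 8-MBaP pools, against 205, 212, 223 and 216 in control pools (log2 fold change 0.81 ± 0.16, adjusted p = 0.0015). Called genes were few in the lists of blood, gut, liver and muscle. *nt5c2l1* (ENSDARG00000034852), a nucleotidase gene, was the only one of 20 erythroid genes called, higher with 123, 166, 126 and 95.0 normalized counts in 8-MBaP pools, against 51.3, 64.0, 56.7 and 51.8 in control pools (log2 fold change 1.19 ± 0.22, adjusted p = 4.5e-04). *pck1* (ENSDARG00000013522), the gluconeogenic enzyme gene, was the only one of 9 intestinal genes, higher at 0.63 ± 0.13 (adjusted p = 0.0032), and all 9 values of that list were positive (median 0.56). Of 30 liver and apolipoprotein genes *apoa1a* (ENSDARG00000012076) was lower at −0.36 ± 0.09 (adjusted p = 0.028), with overlapping pools and a call lost without 8-MBaP pool B, C or D and without control pool C or D (log2 fold change −0.37 to −0.30, adjusted p = 0.052 to 0.2). Of 22 muscle genes *mybpc2b* (ENSDARG00000021265) was lower at −0.70 ± 0.17 (adjusted p = 0.013), a call lost without 8-MBaP pool B or D and without control pool D (log2 fold change −0.64 to −0.57, adjusted p = 0.078 to 0.15).

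Of the 33 lists, 11 had no called gene. All 12 tested heart genes had negative log2 fold changes (−1.30 to −0.04, median −0.41) but none was called, *myl7* being at −0.33 ± 0.17 (adjusted p = 0.62) and *tnnt2a* or *tnnt2b* at −0.07 ± 0.14 (adjusted p = 0.96). The exocrine pancreas list had a median of −0.22 over 20 genes, with the trypsin genes *prss1* at −0.09 and *prss59.2* at −0.26. The p53 and DNA damage list had a median of 0.07 over 22 genes, with *ccng1* at 0.09 and *sesn1* at −0.28. The cell cycle list had a median of −0.09 over 21 genes, with the replication clamp gene *pcna* at 0.02 and *ube2c* at −0.32. Medians were 0.08 for ER and heat stress (17 genes, *atf4a* −0.08 and *atf4b* −0.02), 0.11 for circadian (29 genes, *cry3a* −0.10 and *nr1d2a* −0.17), −0.29 for thyroid (11 genes, *dio3b* −0.43 and *thrb* −0.32) and −0.01 for nervous system genes (14 genes, *elavl3* −0.11 and *elavl4* −0.06).

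Exposure to the related compounds at the same concentration and time gave a direct comparison, made for 2 pairs. It uses the same 8-MBaP pools as the comparison with control, by which many of the genes given here were chosen. A chance deviation of these pools would therefore be shared by these comparisons, and by those with other concentrations of 8-MBaP. 8-MBaP differed from BaP, which lacks the methyl group, in 170 of 18423 genes (0.923%), 75 higher and 95 lower in 8-MBaP, and from 6-MBaP, whose methyl group sits elsewhere, in 164 (0.89%), 91 higher and 73 lower. With no filter on low counts the counts were 302 and 284, and DESeq2 gave 276 against BaP. Adjusted over both pairs together the counts were 168 and 165, and no call of a gene named here changed. The count against BaP was 107 without 8-MBaP pool B, 108 without BaP pool B and 109 without BaP pool C. Each exposure was 1 plate, so compound and plate cannot be told apart here either.

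Of 15 AHR battery genes 7 were higher in 8-MBaP than in BaP and 8 higher than in 6-MBaP, and none was lower. *cyp1d1* and *nqo1* did not pass the test against either compound (adjusted p = 0.86 and 0.87 for *cyp1d1*, 0.12 and 0.24 for *nqo1*). *cyp1a* averaged 7812 normalized counts in 8-MBaP, 929 in BaP, 75.6 in 6-MBaP and 31.0 in control pools, and 8-MBaP was above BaP by 3.07 ± 0.13 (adjusted p = 1.2e-27) and above 6-MBaP by 6.70 ± 0.16 (adjusted p = 1.1e-40) on the log2 scale. *cyp1c2* averaged 185 normalized counts in 8-MBaP, 15.8 in BaP, 10.5 in 6-MBaP and 7.02 in control pools, with differences of 3.57 ± 0.27 (adjusted p = 3.8e-15) from BaP and 4.11 ± 0.30 (adjusted p = 1.1e-16) from 6-MBaP. *cyp1b1* differed by 2.35 ± 0.17 (adjusted p = 1.7e-16) and 4.97 ± 0.22 (adjusted p = 9.8e-27). The repressor gene *tiparp* differed by 0.71 ± 0.13 (adjusted p = 5.3e-04) and 1.29 ± 0.14 (adjusted p = 3.1e-10). *sult6b1* differed by 1.35 ± 0.12 (adjusted p = 7.0e-13) and 2.32 ± 0.12 (adjusted p = 3.3e-22). *cyb5a*, outside the battery, averaged 1009 normalized counts in 8-MBaP, 197 in BaP, 197 in 6-MBaP and 178 in control pools, with differences of 2.35 ± 0.14 (adjusted p = 3.0e-19) and 2.36 ± 0.15 (adjusted p = 1.7e-19). *foxq1a* averaged 614 normalized counts in 8-MBaP, 431 in BaP, 115 in 6-MBaP and 71.1 in control pools, and its difference from BaP was 0.51 ± 0.12 (adjusted p = 0.022), beside 2.43 ± 0.14 (adjusted p = 4.0e-21) from 6-MBaP.

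Several genes that were higher than in control did not pass the test against BaP. *ahr2* averaged 124 normalized counts in 8-MBaP, 101 in BaP, 79.5 in 6-MBaP and 61.0 in control pools. Its difference from BaP was 0.29 ± 0.17 (adjusted p = 0.58), with an interval of −0.05 to 0.63, and that from 6-MBaP 0.63 ± 0.18 (adjusted p = 0.075), with an interval of 0.28 to 0.99. *foxq1b* differed from BaP by 0.14 ± 0.15 (adjusted p = 0.82), with an interval of −0.15 to 0.43, and from 6-MBaP by 0.65 ± 0.15 (adjusted p = 0.013). The cathepsin gene *ctsl.1* differed from BaP by 0.54 ± 0.23 (adjusted p = 0.35), with an interval of 0.09 to 0.98, and from 6-MBaP by 1.55 ± 0.25 (adjusted p = 3.3e-05). *nfe2l2a* differed from BaP by 0.32 ± 0.11 (adjusted p = 0.16), with an interval of 0.11 to 0.52, and from 6-MBaP by 0.68 ± 0.11 (adjusted p = 1.7e-05). The intervals, which are not adjusted for the number of genes, exclude 0 for *ctsl.1* and *nfe2l2a* and include it for *ahr2* and *foxq1b* against BaP, and none of them shows that the compounds act alike.

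Of 22 keratins 8 were lower in 8-MBaP than in BaP and 5 lower than in 6-MBaP, of 22 ionocyte genes 5 and 4, and none of either list was higher. *krt4* averaged 20552 normalized counts in 8-MBaP, 41618 in BaP, 43107 in 6-MBaP and 50251 in control pools, with differences of −1.02 ± 0.08 (adjusted p = 3.1e-14) from BaP and −1.07 ± 0.08 (adjusted p = 2.7e-15) from 6-MBaP. *krt15* averaged 153 normalized counts in 8-MBaP, 384 in BaP, 614 in 6-MBaP and 639 in control pools, and was 2.50-fold lower in 8-MBaP than in BaP (adjusted p = 3.3e-08) and lower than in 6-MBaP (adjusted p = 1.2e-14). The BaP mean of *krt15* thus lay between those of 8-MBaP and control. *slc12a10.2* averaged 4.24 normalized counts in 8-MBaP, 52.3 in BaP, 41.6 in 6-MBaP and 35.0 in control pools, with differences of −3.66 ± 0.42 (adjusted p = 7.2e-09) and −3.32 ± 0.43 (adjusted p = 2.1e-07). *clcn2c* had 2 counts in all 8-MBaP pools, 84 in BaP and 55 in 6-MBaP pools. *ca15a* differed from BaP by −1.57 ± 0.21 (adjusted p = 2.5e-07) and from 6-MBaP by −1.80 ± 0.21 (adjusted p = 4.0e-09). *ponzr3* averaged 57.8 normalized counts in 8-MBaP, 273 in BaP, 179 in 6-MBaP and 246 in control pools, with differences of −2.24 ± 0.22 (adjusted p = 1.6e-11) and −1.65 ± 0.22 (adjusted p = 4.5e-07). *and2* averaged 2200.1 normalized counts in 8-MBaP, 3436 in BaP, 3256 in 6-MBaP and 3535 in control pools, with differences of −0.64 ± 0.09 (adjusted p = 4.4e-06) and −0.57 ± 0.09 (adjusted p = 5.9e-05). *and3* differed by −0.49 ± 0.09 (adjusted p = 3.4e-04) and −0.39 ± 0.09 (adjusted p = 0.0071). *and2* and *and3* were thus lower in 8-MBaP than in either compound, by less than 2-fold. *and1* differed from BaP by −0.11 ± 0.08 (adjusted p = 0.71), with an interval of −0.26 to 0.05, and from 6-MBaP by −0.12 ± 0.08 (adjusted p = 0.73), with an interval of −0.27 to 0.04. The fin fold regulators *dlx3b* and *sp9* were higher in 8-MBaP than in both. *dlx3b* differed by 0.69 ± 0.15 (adjusted p = 0.008) and 0.95 ± 0.16 (adjusted p = 5.9e-05). *sp9* differed by 0.68 ± 0.17 (adjusted p = 0.036) and 1.05 ± 0.18 (adjusted p = 1.4e-04). *bhlha9* differed from 6-MBaP by −1.19 ± 0.31 (adjusted p = 0.034), while its difference from BaP was −1.04 ± 0.30 (adjusted p = 0.082), with an interval of −1.64 to −0.45.

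The chemokine gene *ccl27a* averaged 24.6 normalized counts in 8-MBaP, 3.71 in BaP, 0.307 in 6-MBaP and 1.27 in control pools, and differed from BaP by 2.70 ± 0.64 (adjusted p = 0.018). Against 6-MBaP it had 103 counts in 8-MBaP pools and 1 in 6-MBaP pools, a ratio of 85.8 with a counting interval of 15.1 to 3420.0 (adjusted p = 2.0e-05). *si:dkey-119g10.4* (ENSDARG00000095801) had 0 counts in all 4 8-MBaP pools and was at least 14.4-fold lower than in 6-MBaP (adjusted p = 0.0033), taking a floor of 3 counts over the group, but was not called against control (adjusted p = 0.098).

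**Figure D4:**
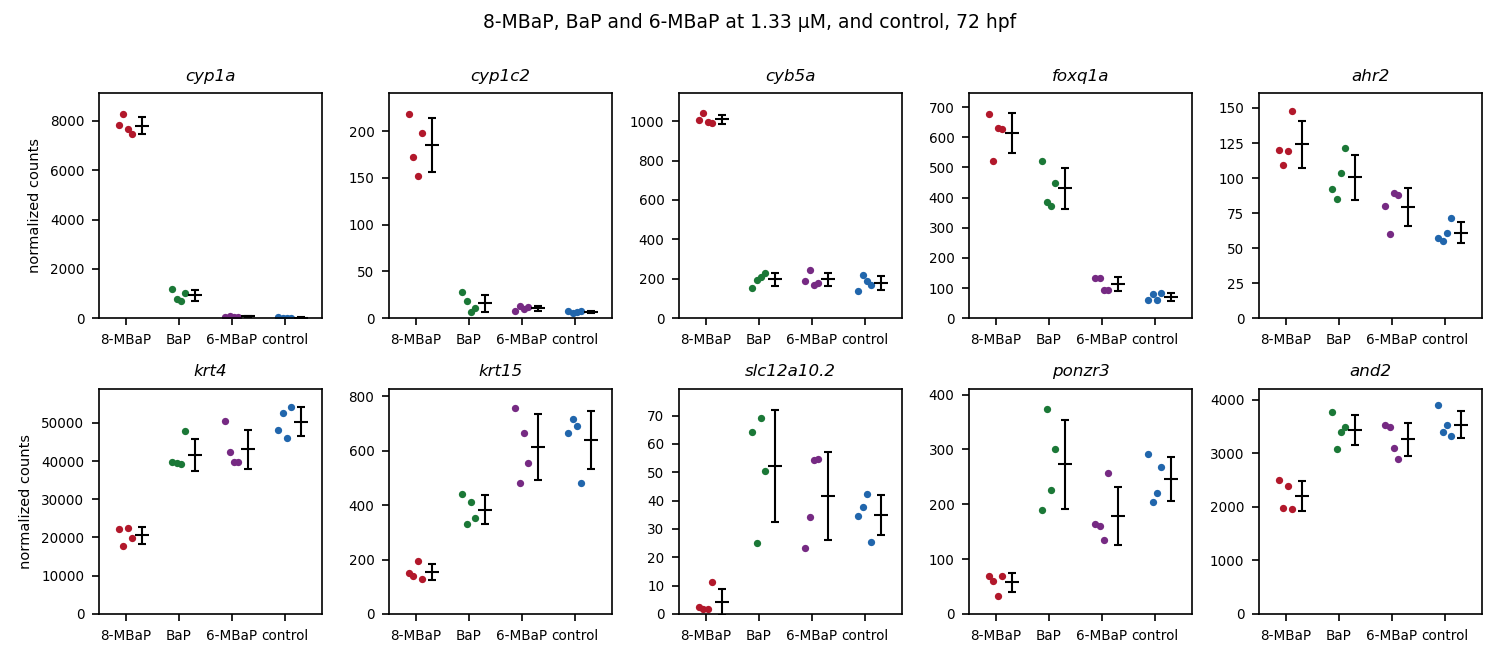
Normalized counts per library (linear axes from 0) of 10 genes at 72 hpf in 8-MBaP (red), BaP (green) and 6-MBaP (purple), all at 1.33 µM, and in control (blue), with 4 pools each. Black bars give the mean ± SD. For *cyp1a*, *cyp1c2* and *cyb5a* the 8-MBaP pools lie far above all others, while the pools of *ahr2* in 8-MBaP and BaP overlap. For *krt4*, *krt15*, *slc12a10.2*, *ponzr3* and *and2* the 8-MBaP pools lie below all others.

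The count of genes that differed between 1.33 µM and the neighboring concentrations of 8-MBaP depended on the method. The step from 0.133 to 1.33 µM gave 31 called genes (0.168%), 12 higher and 19 lower at 1.33 µM, and the step from 1.33 to 13.3 µM gave 27 (0.147%), 12 higher and 15 lower at 13.3 µM. The first count was 20 without 8-MBaP 1.33 µM pool B and 20 without 0.133 µM pool B. The later count was 12 without 8-MBaP 1.33 µM pool A, 13 without pool B or D, 12 without 13.3 µM pool B and 17 without 13.3 µM pool D. With no filter on low counts the counts were 85 and 204, and for the upper step DESeq2 gave 127 and the compared groups alone 72. At an unadjusted p under 0.05 there were 1080 and 1681 genes.

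*cyp1a*, *cyp1c2*, *foxq1a* and *tiparp* passed the test for the lower step and not for the upper. *cyp1a* averaged 31.0 normalized counts in control pools, 3189 at 0.133 µM, 7812 at 1.33 µM and 8181 at 13.3 µM, with a difference of 1.29 ± 0.12 (adjusted p = 9.8e-12) for the lower step and 0.07 ± 0.12 (adjusted p = 0.93) for the upper. *cyp1c2* averaged 7.02 normalized counts in control pools, 26.3 at 0.133 µM, 185 at 1.33 µM and 249.5 at 13.3 µM, with 2.82 ± 0.26 (adjusted p = 9.8e-12) and 0.43 ± 0.22 (adjusted p = 0.55). *foxq1a* differed by 0.64 ± 0.12 (adjusted p = 0.0038) and 0.11 ± 0.12 (adjusted p = 0.87). For *tiparp* the steps were 0.82 ± 0.13 (adjusted p = 1.1e-04) and 0.18 ± 0.13 (adjusted p = 0.75). *gstp1.2* was called at both steps, at 0.42 ± 0.09 (adjusted p = 0.011) and 0.42 ± 0.09 (adjusted p = 0.015). *and2*, *slc12a10.2* and *krt4* were lower at 1.33 than at 0.133 µM, and did not pass the test for the upper step. *and2* averaged 3535 normalized counts in control pools, 3759 at 0.133 µM, 2200.1 at 1.33 µM and 1687 at 13.3 µM, with −0.77 ± 0.09 (adjusted p = 8.5e-08) and −0.38 ± 0.09 (adjusted p = 0.064). *slc12a10.2* averaged 35.0 normalized counts in control pools, 20.2 at 0.133 µM, 4.24 at 1.33 µM and 3.05 at 13.3 µM, with −2.27 ± 0.47 (adjusted p = 0.0091) and −0.29 ± 0.62 (adjusted p = 0.95). *krt4* averaged 50251 normalized counts in control pools, 31025 at 0.133 µM, 20552 at 1.33 µM and 19989 at 13.3 µM, with −0.59 ± 0.08 (adjusted p = 2.7e-06) and −0.04 ± 0.08 (adjusted p = 0.95). The smallest adjusted p of the upper step was that of *klf2a* (ENSDARG00000042667), chosen after its values were seen. Its means were 162 normalized counts in control pools, 329 at 0.133 µM, 291 at 1.33 µM and 93.8 at 13.3 µM. Its upper step was −1.63 ± 0.20 (adjusted p = 5.2e-07). Its call as higher at 1.33 µM than in control (0.86, adjusted p = 0.0058) was lost without control pool D (0.66). The difference of *klf2a* between 13.3 µM and control is not given here. Whether the lower and the upper step of a gene differ was not tested.

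The same exposure was sampled at 48 hpf, the time chosen by the study as before any malformation, in pools that share no library with those of 72 hpf. The sources give 1 plate for each exposure, so pools of both times may come from the same plate, and a plate effect would then be shared by both. At 48 hpf 123 of 17794 genes (0.691%) were called, 74 higher and 49 lower in 8-MBaP pools, and 201 with no filter on low counts. Of the 95 genes higher at 72 hpf, 93 were tested at 48 hpf, 79 lay in the same direction and 40 were called in it, with a median log2 fold change of 0.64 at 48 hpf. Of the 75 lower genes all were tested, 66 lay in the same direction and 20 were called, with a median of −0.28. No gene was called in the opposite direction, and over all genes tested at both times 50.4% had a positive value at 48 hpf. *cyp1a* had 5006, 5454, 5074 and 4449 normalized counts in 8-MBaP pools, against 29.4, 35.2, 37.2 and 28.0 in control pools at 48 hpf (log2 fold change 7.26 ± 0.17, adjusted p = 1.0e-43). *and2* had 782, 1141, 1037 and 1195 normalized counts in 8-MBaP pools, against 2443, 2495, 2539 and 2112 in control pools (log2 fold change −1.21 ± 0.10, adjusted p = 1.5e-14). The groups of both genes did not overlap. *foxq1a* was at 3.62 ± 0.18 (adjusted p = 4.5e-26) and *ahr2* at 1.01 ± 0.18 (adjusted p = 3.0e-04). The keratin gene *krt1-19e* was at −1.03 ± 0.08 (adjusted p = 1.6e-15). Of the fin fold regulator genes, *dlx3b* and *sp9* were called in the same direction as at 72 hpf, *dlx3b* at 0.91 ± 0.13 (adjusted p = 8.4e-07) and *sp9* at 0.78 ± 0.15 (adjusted p = 0.0014). Not called at 48 hpf were *bhlha9* at −0.74 ± 0.31 (adjusted p = 0.44), *slc12a10.2* at −1.77 ± 0.56 (adjusted p = 0.18) and *ponzr4* at −1.39 ± 0.45 (adjusted p = 0.2). *wfikkn1*, with few counts at 72 hpf, was at least 19.7-fold higher at 48 hpf (adjusted p = 9.9e-05), and *ccl27a* at least 9.28-fold (adjusted p = 0.022), each against a floor of 3 counts over the control pools.

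The change of the effect itself between the times was called in 13 of 19211 genes (0.0677%), and 1419 had an unadjusted p under 0.05. The difference (72 minus 48 hpf, log2 scale) was positive in 4 of the 13 and negative in 9. The count of calls was 51 with DESeq2, which shared 10 of the 13, 76 with no filter on low counts and 24 with the compared groups alone. The fall of *krt4* was larger at 72 hpf, with a log2 fold change of −1.29 ± 0.08 at 72 hpf and −0.55 ± 0.06 at 48 hpf, a difference of −0.74 ± 0.10 (adjusted p = 1.0e-06). *cyt1l* likewise was at −1.41 ± 0.19 at 72 hpf and −0.22 ± 0.12 at 48 hpf, a difference of −1.19 ± 0.25 (adjusted p = 0.011). For *zgc:112964* the values were −1.98 ± 0.22 and −0.20 ± 0.13, a difference of −1.78 ± 0.25 (adjusted p = 4.2e-06). *zgc:165423* (ENSDARG00000052905), with 127, 94.0, 125 and 103 normalized counts in 8-MBaP pools, against 20.1, 27.0, 29.9 and 26.3 in control pools at 72 hpf, 4.30-fold higher (adjusted p = 5.6e-08), had the largest change of effect, 3.30 ± 0.64 (adjusted p = 0.0042). Rises that were smaller at 72 hpf were those of *ptgdsb.2* (ENSDARG00000071626), a lipocalin-type prostaglandin synthase gene, at 0.71 ± 0.15 and 2.00 ± 0.25 (difference −1.30 ± 0.29, adjusted p = 0.027), and ENSDARG00000091116 at 2.27 ± 0.14 and 3.63 ± 0.16 (difference −1.36 ± 0.22, adjusted p = 7.0e-05). *pde6ha* (ENSDARG00000102558), a cone phosphodiesterase gene, was at −0.25 ± 0.17 at 72 hpf, not called, and 1.44 ± 0.32 at 48 hpf, a difference of −1.68 ± 0.35 (adjusted p = 0.012). The chemokine gene *cxl34b.11* (ENSDARG00000092283) was at 0.56 ± 0.16 at 72 hpf (adjusted p = 0.083) and −1.02 ± 0.24 at 48 hpf, a difference of 1.58 ± 0.29 (adjusted p = 0.0024). No change of effect was called for *cyp1a* (difference 0.73 ± 0.27, adjusted p = 0.45) or *and2* (difference 0.52 ± 0.14, adjusted p = 0.13).

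**Figure D5:**
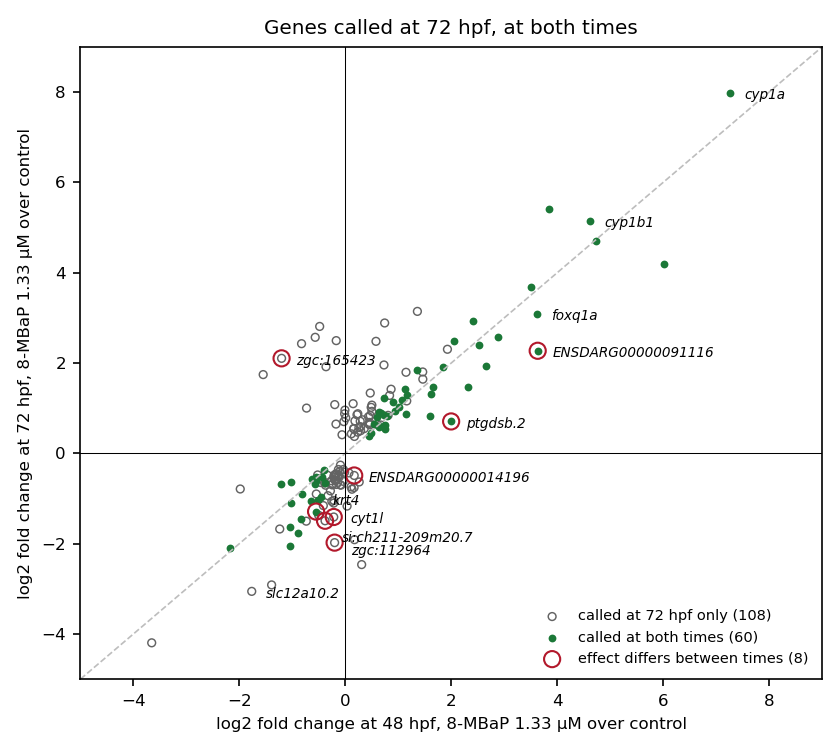
log2 fold change of 8-MBaP at 1.33 µM over control at 72 hpf (vertical) against that at 48 hpf (horizontal) for the 168 genes called at 72 hpf and tested at 48 hpf, 1 point per gene, with the line of equal values dashed. Green points are the 60 genes called at both times and open points the 108 called at 72 hpf only. Red rings mark the 8 of all 168 whose effect differed between the times. The genes called at both times lie in the upper right and lower left parts of the plot.

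Change with age was read from 6-MBaP at 0.133 µM, the pools of 72 against 48 hpf, since these share no library with the 72 hpf comparison. They are exposed embryos, so the change is not that of untreated embryos. Over 19211 genes 13.1% were called higher and 11.3% lower with age. Of the 95 genes higher in 8-MBaP at 72 hpf, 44 were called higher and 15 lower with age, with a median log2 change of 0.59 with age, beside 0.03 over all genes. Of the 75 lower genes, 25 were called higher and 24 lower with age, with a median of 0.13. These counts are a description without a test, and the genes compared were not matched for their level.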

How the data were processed

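Poly-A RNA of pooled whole embryos was counted from its 3′ ends (BRB-seq). The authors deposited raw read counts per gene, 1 table of 32520 gene IDs by 80 libraries, made by a sequencing company that mapped and demultiplexed the reads. The aligner, genome build and annotation, and whether molecular identifiers were collapsed, are not given in the sources used here. The 8 libraries of the comparison held 5736395 to 8070442 counts. No library pair of a group agreed within sampling noise.

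Tests took genes reaching 5 reads in 2 or more libraries of a time and used edgeR 4.0.16 (R 4.3.3), by TMM scaling and the quasi-likelihood F test, with the 10 groups of the time in 1 fit and Benjamini-Hochberg adjustment over all genes tested. Calls needed an adjusted p of 0.05 or under. The change of effect between times was fitted on all 80 libraries. Normalized counts are counts divided by the effective library size and multiplied by its mean over the 40 libraries of the time. Errors of log2 fold changes are standard errors derived from the test, as the absolute log2 fold change divided by the square root of F. Intervals of count ratios are exact and cover counting error only. No source says that the pools of a group came from separate exposures. The p-values therefore measure the spread between pools within groups, shared over all groups of a fit. DESeq2 1.42.0, other scaling and filters, the replicate letter as a block, the compared groups alone and each library left out were tried. The fits were checked on simulated data.

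Symbols came from the supplied gene tables for 27304 of 32520 IDs, 2630 of them through a counterpart shared by a pair of IDs, written as "*a* or *b*". Named genes were the 12 largest called rises and falls with a symbol, a mean of at least 20 in the higher group and no overlap, all tested AHR battery genes, up to 5 called genes of each other list by p (up to 2 of largest mean where a list had none called), genes the study singled out, up to 5 of the largest called differences from BaP, from 6-MBaP and between times, and up to 2 risen and 2 fallen IDs without a symbol. The members and the 33 lists were chosen with earlier results of these data known. No sequence or promoter was analysed here.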

Additional observations from a re-analysis of the deposited data

Results flagged for a closer look

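In 15 of 225 groups of 4 pools looked at, 1 pool lay far from the other 3 by Dixon's test, which chance alone does in about 1 group in 20. Below the rest of their group were, in normalized counts, *ctss2.1* at 45.9, *postna* or *postnb* at 82.6 and *arnt* at 0 in 8-MBaP pool C, *nr1d2a* at 324 in 8-MBaP pool D, *si:ch211-207n23.2* at 923 in 8-MBaP pool A, *and3* at 817 in control pool B, the *col2a1a* or *col2a1b* ID ENSDARG00000011407 at 2211 in control pool A, and *myb* at 49.3 and *ube2c* at 382 in control pool D. Above the rest of their group were *mmp9* at 94.0 and *slc12a10.2* at 11.2 in 8-MBaP pool D, ENSDARG00000097714 at 47.6 in 8-MBaP pool A, *ca15a* at 133 in control pool B, *gli2a* or *gli2b* at 107 in control pool C and *mybpc2b* at 332 in control pool D. By library the number was 2, 0, 3 and 3 in 8-MBaP pools A to D and 1, 2, 1 and 3 in control pools A to D.

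For 10 named genes the effect of 8-MBaP differed between the times by the test of the difference itself (72 minus 48 hpf, log2 scale). The difference was negative for *zgc:112964* (−1.78), *pde6ha* (−1.68), ENSDARG00000091116 (−1.36), *ptgdsb.2* (−1.30), *cyt1l* (−1.19), *si:ch211-209m20.7* (−1.11), *krt4* (−0.74) and ENSDARG00000014196 (−0.66). For *zgc:112964*, *cyt1l*, *si:ch211-209m20.7* and *krt4* this was a larger fall at 72 hpf. For ENSDARG00000091116 and *ptgdsb.2* it was a smaller rise. The difference was positive for *zgc:165423* (3.30) and *cxl34b.11* (1.58).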

How the results depend on the processing

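The count of 170 genes against control was 307 (159 higher, 148 lower) with no filter on low counts. It stayed between 131 and 238 under the other alternatives. All 140 calls added without the filter were of genes that were tested and not called with it. DESeq2 gave 216 and the compared groups alone 238. With no filter, the counts were 302 for the difference from BaP, 284 from 6-MBaP, 85 for the lower step of concentration (31 with the filter), 204 for the upper step (27 with it), 201 at 48 hpf (123 with it) and 76 for the change of effect between times (13 with it). DESeq2 gave 276 genes against BaP, 127 for the upper step and 51 for the change of effect. The compared groups alone gave 72 for the upper step and 24 for the change of effect. The cause of these shifts was not tested. Leaving out 1 library gave 131 to 158 genes against control (77 to 87 higher, 53 to 81 lower), 107 to 165 against BaP, 125 to 145 against 6-MBaP, 20 to 32 and 12 to 38 for the lower and upper step, 93 to 114 at 48 hpf and 10 to 17 for the change of effect.

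Pools of the same letter did not deviate together (correlations of −0.014 to 0.043 over 11339 genes), so the letters name the pools only. With the replicate letter as a block 172 genes were called against control (95 higher, 77 lower, 164 shared), 158 against BaP, 169 against 6-MBaP, 31 and 22 for the lower and upper step, 121 at 48 hpf and 15 for the change of effect, and of the named calls only that of *sp8a* or *sp8b* was lost (adjusted p = 0.05). Of 78 named genes called, 55 were called under every alternative tried and 23 lost the call under at least 1. None of the 78 changed sign, and 10 of 39 genes not called did. *cxl34b.11*, not called, passed under 3 alternatives. Genes with few counts, such as *clcn2c* and *cxcl19*, are limited by depth.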

Other observations

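The called genes given here are on none of the lists and were chosen after their values were seen. The profilin gene *pfn1* (ENSDARG00000088091) had 4803, 4252, 4128 and 5703 normalized counts in 8-MBaP pools, against 7070.0, 5905, 6789 and 6695 in control pools (log2 fold change −0.49 ± 0.08, adjusted p = 1.0e-04). The coactosin-like gene *cotl1* (ENSDARG00000026829) had 1742, 1926, 1881 and 1912 normalized counts in 8-MBaP pools, against 2438, 2808, 2964 and 3049 in control pools (log2 fold change −0.59 ± 0.09, adjusted p = 1.7e-06). Both encode proteins that bind actin, and no 8-MBaP pool of either gene reached the control range. Lower too were the ammonia transporter gene *rhbg* (ENSDARG00000009018) at −0.66 ± 0.12 (adjusted p = 2.5e-04) and *fxyd11* (ENSDARG00000099117), a regulator of the sodium pump, at −0.65 ± 0.11 (adjusted p = 8.2e-05). An ID of *fn1a* or *fn1b* (ENSDARG00000006526), fibronectin genes, was at −0.70 ± 0.13 (adjusted p = 2.5e-04), and the lipoxygenase gene *alox12* (ENSDARG00000069463) at −0.83 ± 0.17 (adjusted p = 0.0024).

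Among higher genes, *myog* (ENSDARG00000009438), a regulator of muscle differentiation, had 238, 205, 154 and 171 normalized counts in 8-MBaP pools, against 93.8, 93.7, 125 and 105 in control pools (log2 fold change 0.88 ± 0.18, adjusted p = 0.0019), while the troponin gene *tnni1c* (ENSDARG00000042559) was lower at −0.74 ± 0.15 (adjusted p = 0.002). *fstl3* (ENSDARG00000025670), a secreted antagonist of activins, had 156, 164, 129 and 153 normalized counts in 8-MBaP pools, against 60.3, 64.0, 87.6 and 68.8 in control pools (log2 fold change 1.10 ± 0.17, adjusted p = 1.6e-05). The groups of both did not overlap. An ID of *cdkn1ba* or *cdkn1bb* (ENSDARG00000029018), inhibitors of the cell cycle, was higher at 0.80 ± 0.15 (adjusted p = 4.1e-04), and the water channel gene *aqp8a.2* (ENSDARG00000071592) at 1.08 ± 0.21 (adjusted p = 7.3e-04). ENSDARG00000109310 had 1442, 1164, 1196 and 1207 normalized counts in 8-MBaP pools, against 337, 336, 362 and 295 in control pools (log2 fold change 1.91 ± 0.12, adjusted p = 2.8e-19), and *mamdc2b* (ENSDARG00000073695) was at 2.31 ± 0.36 (adjusted p = 1.6e-05). None of the calls of these genes was lost under an alternative tried.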
